A study of Mus musculus with 2 samples.

Results

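Sst, Vip, Npy and Cck encode the precursors of somatostatin, vasoactive intestinal peptide, neuropeptide Y and cholecystokinin, the peptides by which many cortical interneurons are classified. They were picked by symbol and make up 4 of the 32285 genes counted on 2 coronal sections of mouse brain, where their regional and laminar patterns in neocortex, hippocampus and other regions are described. Both sections came from male ArcCreERT2::eYFPflx mice of 3 to 4 months, which carry a tamoxifen-inducible Cre at the immediate early gene Arc and a Cre-dependent eYFP reporter on a C57BL/6 background. The trained mouse learned active place avoidance, in which a zone of a rotating arena gives a shock, and the untrained mouse was placed in the same rotating arena with no active shock zone. Brains were taken 60 minutes after the retention test and cut at 10 µm through the dorsal hippocampus. Each group was 1 section of 1 mouse, so no difference between them has a replicate check. The sections are called trained and untrained by their deposited labels. Neither the hippocampal spots counted here nor those among them with an Arc UMI matched in number those stated for the groups of that name, the labels could not be settled from these numbers, and every direction between the sections holds only for the labels as deposited.

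Cortical inhibitory neurons fall into classes that differ in the peptide they release, the part of the pyramidal cell they contact and the layer they occupy. Somatostatin cells mostly contact dendrites, VIP cells largely contact other interneurons, neuropeptide Y is made by neurogliaform cells and by a subset of somatostatin cells, and cholecystokinin marks basket cells that carry the cannabinoid receptor CB1. Cck is also transcribed in many excitatory neurons of cortex, hippocampus and thalamus, and Sst in inhibitory neurons well outside the cortex, including periventricular cells of the hypothalamus. A Visium spot is a small round area of tissue that covers several cells or parts of them, so a spot is not a neuron and its counts cannot be assigned to a cell class. In such spots, fewer peptide cells and less peptide RNA per cell cannot be told apart.

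On GRCm38 with the GENCODE vM21 gene models, Sst (ENSMUSG00000004366) lay at chr16:23889573-23890958 on the minus strand with 2 exons, and Vip (ENSMUSG00000019772) at chr10:5639218-5647617 on the plus strand with 6 exons. Npy (ENSMUSG00000029819) lay at chr6:49822710-49829507 on the plus strand with 4 exons, and Cck (ENSMUSG00000032532) at chr9:121489824-121495694 on the minus strand with 4 exons. None of the 4 spans overlapped another annotated gene. Sst is the textbook target of the cyclic AMP response element, whose full form is TGACGTCA and whose shorter core forms are TGACG and CGTCA (the same core read on either strand, and part of the full form), so the RefSeq GRCm38.p6 promoter entries of the members (250 bases before to 50 after the start) were searched for these letters on both strands. The 3 windows of 30 bases below show the matches with the motif in capitals, written 5′ to 3′ on the strand of the gene. The Sst window is chr16:23890875-23890904 (minus strand), the Cck window chr9:121495725-121495754 (minus strand) and the Vip window chr10:5639128-5639157 (plus strand).
Sst: cgcctccttggcTGACGTCAgagagagagt
Cck: tcctgctggactgCGTCAgcactgggtaaa
Vip: gatcactactgTGACGtctttcggggagcc
The full palindrome stood at -48 to -41 of the RefSeq start of Sst, and core forms at -47 to -43 of Cck and -79 to -75 of Vip. GENCODE starts the Sst gene upstream of the RefSeq start, so the Sst window lies inside the GENCODE gene span given above. None of these letters occurred in the 300 bases searched for Npy. The palindrome was found in 1.79% of 32851 mouse promoter entries and a core form in 20.8%. A match describes the letters only and says nothing of binding in this tissue.

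Values are unique molecular identifiers (UMIs, 1 per captured transcript) summed over the spots of a region and given per 1000000 of that region's UMIs (CPM), with exact 95% Poisson intervals that cover counting error only. The trained section held 4152 spots and 29515831 UMIs (median 5950.5 per spot) and the untrained section 3738 spots and 59029131 UMIs (median 13766.5). UMIs of mitochondrially encoded genes made up 12.3% of the trained and 16.2% of the untrained total. The spots of both sections were clustered together into 22 clusters on 922 variable genes. These excluded the 4 peptides, the immediate early genes and the lists of receptors, interneuron genes, related peptides and peptide processing genes below. Layer, region and cell type markers were not excluded, and clusters were named from the layer and region markers. Neocortex took 693 trained and 705 untrained spots, hippocampus 562 and 540, and white matter 474 and 450. The sections did not hold all regions equally, with 231 trained and 49 untrained spots of striatum. Cluster 15, led by Cartpt, Vgll3 and Trhr, took 11 trained and 185 untrained spots and stayed unnamed. A cluster led by Six3, Pvalb and Esrrg, which arched around the thalamus, took 116 and 36 spots and stayed unnamed as cluster 17. Cluster 14 of the hippocampus, led by Cabp7, Klk8 and Neurod6, also stayed unnamed. The 3′ tags of different genes are captured with different efficiency, so levels are compared between regions for 1 gene and not between genes.

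**Figure D1:**
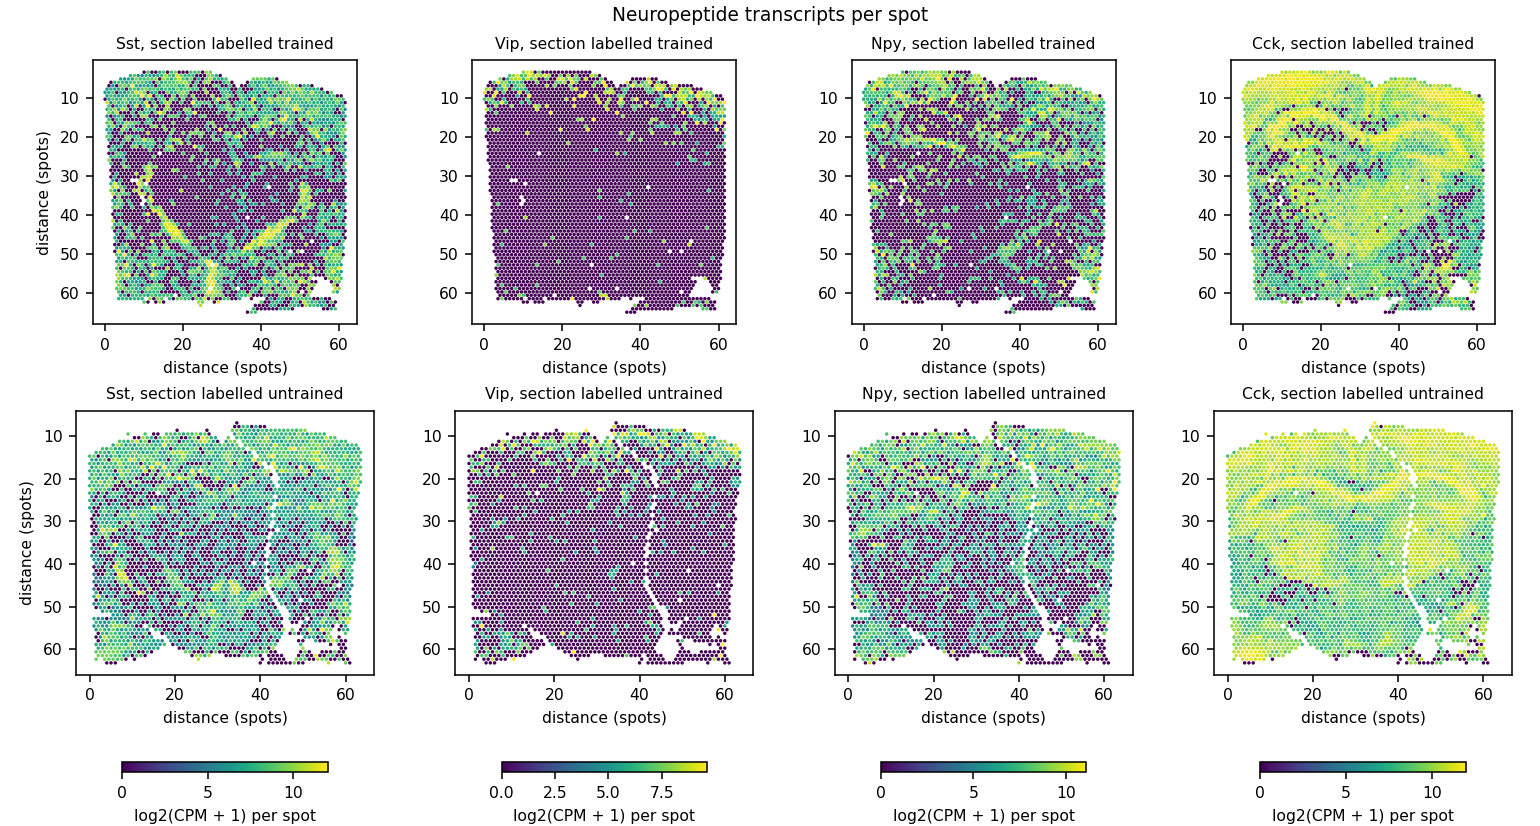
Spots of the trained and untrained sections coloured by the UMIs of Sst, Vip, Npy and Cck in each spot, as log2(CPM + 1) of the spot on the scale of the colour bar under each gene. Axes are distances in spots, and the white line in the untrained section is a crack in the tissue. Vip was largely limited to the cortical mantle, Npy and Sst were scattered over cortex and hippocampus with dense Sst patches below, and Cck filled cortex, parts of the hippocampus and the thalamus.

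Over a whole section, Sst had 308 CPM in the trained (9094 UMIs) and 256 CPM in the untrained section (15091 UMIs). Vip, the sparsest, had 40.2 CPM (1188 UMIs) and 30.6 CPM (1809 UMIs). Npy had 187 CPM (5516 UMIs) and 170 CPM (10036 UMIs), and Cck 1111 CPM (32796 UMIs) and 1106 CPM (65286 UMIs). All 4 genes were spatially structured: Moran's I, the spatial autocorrelation score in the deposited enrichment tables, was 0.253 and 0.297 for Sst, 0.238 and 0.273 for Vip and 0.239 and 0.329 for Npy. Cck reached 0.517 and 0.556, rank 19 of 20513 genes in the trained and 13 of 21498 in the untrained table. That score compares neighbouring spots and does not say where in the section a gene is high.

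Vip was the most cortical of the 4 peptides. Neocortex held 87.8% of all Vip UMIs in the trained and 72.6% in the untrained section, against 28.2% and 22.3% of the UMIs of all genes. Its level there was 125 CPM (interval 118 to 133) and 99.98 CPM (94.6 to 106), which was 18.2-fold (15.4 to 21.9) and 9.25-fold (8.34 to 10.3) that of the rest of the section. In the hippocampus the level was 13.7 CPM on 59 UMIs and 15.5 CPM on 173 UMIs, and in the thalamic and hypothalamic clusters it did not pass 10 CPM. Within the hippocampus Vip stood highest in CA1 cluster 19, at 37.2 CPM (25.1 to 53.1) and 32.7 CPM (24.7 to 42.5), and lower in the dentate gyrus, at 6.06 and 7.02 CPM. CA1 cluster 5 had 16.9 CPM (9.46 to 27.9) and 22.2 CPM (16.2 to 29.5), which overlapped cluster 19 in both sections. The striatum had 3.06 CPM in the trained and 41.1 CPM (26.3 to 61.1) in the untrained section, there second only to neocortex. No Vip UMI was seen in the habenula of the trained section, which allows up to 7.05 CPM at 3 UMIs, and the untrained habenula had 5.86 CPM. White matter, which holds few neurons, gave 5.18 CPM in the trained and 18.99 CPM in the untrained section. In the untrained section the hippocampal level was therefore no higher than that of white matter (0.812-fold, 0.614 to 1.09), while in the trained section it was 2.55-fold (1.38 to 5.59).

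Among regions of 20 spots or more, Npy was also highest in neocortex, at 357 CPM (344 to 370) in the trained and 344 CPM (334 to 354) in the untrained section. Neocortex held 53.9% and 45.0% of its UMIs. Spots assigned to no region had 230 and 487 CPM (415 to 568 in the untrained section), and 18 other hippocampal spots of the trained section had 422 CPM (278 to 614). The hippocampal level of Npy was 236 CPM (222 to 251) and 256 CPM (247 to 266). That was 2.86-fold (2.44 to 3.38) and 2.25-fold (2.03 to 2.50) the level of white matter, an excess that Vip had in the trained section only. In the trained section the dentate gyrus led the named hippocampal clusters, at 291 CPM (265 to 320), with CA1 cluster 5 at 254 CPM (222 to 289) and CA1 cluster 19 at 146 CPM (121 to 175). In the untrained section cluster 14 led at 307 CPM (288 to 327), and the dentate gyrus (246 CPM), CA1 cluster 19 (228 CPM) and CA1 cluster 5 (222 CPM) had overlapping intervals. The striatum had 191 and 221 CPM, and the thalamic and hypothalamic clusters stayed below 100 CPM. The lowest levels were 15.5 CPM in thalamic cluster 3 of the trained section and 35.9 CPM in hypothalamic cluster 6 of the untrained section.

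Sst had its highest level outside the cortex. Cluster 17, where the inhibitory markers Gad1 and Gad2 were also highest, had 1551 CPM (1472 to 1634) in the trained and 1121 CPM (1026 to 1222) in the untrained section. This held on each side of the brain, with 1593 CPM left and 1535 CPM right in the trained section and 1237 and 1080 CPM in the untrained section. Neocortex had 378 CPM (365 to 392) and 475 CPM (463 to 486), which was 1.35-fold (1.29 to 1.41) and 2.46-fold (2.38 to 2.54) the rest of each section. Striatum had 358 CPM (334 to 383) and 570 CPM (510 to 634). In the hypothalamus, Sst followed the midline in the trained section, where the spots of cluster 6 within 2 spot distances of the midline had 1379 CPM (1253 to 1514), those 2 to 5 distances away 234 CPM and those farther out 166 CPM. The untrained section did not share that order, with 294 CPM (263 to 327) nearest the midline, 409 CPM (378 to 442) at 2 to 5 distances and 99.5 CPM beyond. Thalamus was poor in Sst, with 36.7 CPM and 102 CPM in cluster 0 and 48.5 CPM and 50.7 CPM in cluster 3.

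In the hippocampus, Sst differed between the clusters that carried CA1 markers. Cluster 5, with a median of 2712.5 UMIs per spot in the trained and 10245 in the untrained section, had 365 CPM (327 to 407) in the trained and 260 CPM (239 to 283) in the untrained section. Cluster 19, with medians of 12820 and 22779 UMIs, had 60.7 CPM (44.9 to 80.3) and 80.7 CPM (67.8 to 95.3), well below cluster 5 in both sections, and the part of depth was not tested. The dentate gyrus lay between, at 163 and 172 CPM. Cluster 14 had 231 CPM in the trained section and 404 CPM (382 to 426), above CA1 cluster 5, in the untrained section. Pooled over the hippocampus, Sst had 204 CPM (190 to 217) and 243 CPM (234 to 252), which was 0.986-fold (0.879 to 1.11) and 1.17-fold (1.08 to 1.27) the level in white matter.

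Cck showed the opposite CA1 order. CA1 cluster 19 had its highest level of any region in both sections, 3399 CPM (3273 to 3529) and 2997 CPM (2916 to 3080), and CA1 cluster 5 had 1529 and 1446 CPM. Cluster 14 followed at 2414 and 2015 CPM, while the dentate gyrus had only 640 and 725 CPM. Neocortex had 1896 CPM (1866 to 1926) and 1682 CPM (1660 to 1704), nearly the level of the whole hippocampus at 1777 and 1591 CPM (ratios of 1.07 and 1.06). Thalamus carried Cck in both of its clusters, but in opposite order, with 1015 CPM in cluster 0 and 1230 CPM in cluster 3 of the trained section and 1506 and 821 CPM in the untrained section. White matter had 337 and 480 CPM, and the lowest level was 252 and 260 CPM in cluster 9, which had Nts and Syt2 among its leading genes.

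**Figure D2:**
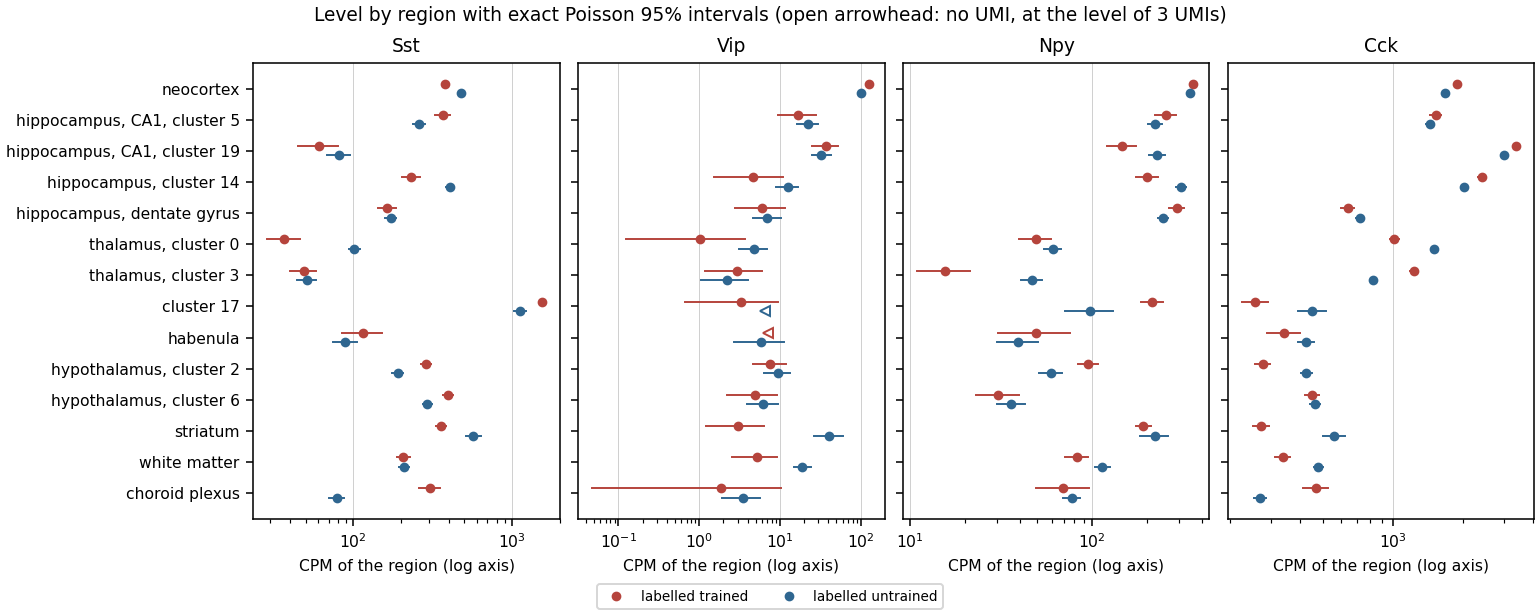
CPM of Sst, Vip, Npy and Cck (log axis) in 14 regions of the trained (red) and untrained (blue) sections, with exact 95% Poisson intervals as bars. Open arrowheads stand at the level of 3 UMIs where no UMI was counted. Cluster 17 led for Sst at 1551 and 1121 CPM, neocortex led for Vip and Npy, and CA1 cluster 19 led for Cck at 3399 and 2997 CPM.

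When regions of 20 spots or more were ordered by level, the interval of a region overlapped that of the next for 14 of 17 neighbouring pairs (trained) and 14 of 19 (untrained) for Sst, 16 of 17 and 18 of 19 for Vip, 14 of 17 and 17 of 19 for Npy, and 9 of 17 and 13 of 19 for Cck. Most neighbours in these orders were therefore not separated by their counting intervals. A level in neocortex at least 1.5-fold that of the rest of the section was met by 3 of the 4 peptides in the trained section and 4 of 4 in the untrained section, against 8.58% and 7.17% of all genes with enough UMIs. Sst of the trained section was the exception.

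Across the cortical depth the 4 peptides took different courses. Depth was measured as the distance from the outer tissue edge over the sum of the distances to that edge and to the white matter, in 5 equal bins from the surface inward, and excitatory layer markers checked it. Cux2 of the upper layers had 66.9 CPM in bin 1 and 4.78 CPM in bin 5 of the trained section, and 51.8 and 10.9 CPM in the untrained section. Rorb of layer 4 peaked in bin 2, Etv1 of layer 5 in bin 3, and Ccn2 of the deepest layer reached 152 and 113 CPM in bin 5. Spots of cluster 13 and of meninges and vessels that adjoined the neocortex were counted with it. Ptgds, among the leading genes of cluster 13, was highest in bin 1, at 1308 and 1306 CPM.

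Vip was lower in each of the 5 bins than in the one outside it. From the surface, its level was 231, 114, 90.9, 68.6 and 40.6 CPM in the trained section and 175, 103, 59.2, 40.9 and 15.7 CPM in the untrained section. In 9 bins the course was not steady, with 22.5 CPM (15.6 to 31.5) in bin 6 and 51.2 CPM (39.6 to 65.0) in bin 7 of the untrained section, 80.0 CPM (67.1 to 94.6) in its bin 4 and 106 CPM (88.0 to 126) in its bin 5, and 79.0 CPM (60.4 to 101) in bin 5 and 102 CPM (81.4 to 127) in bin 6 of the trained section. With 5 bins, the outermost was 5.68-fold and 11.1-fold the innermost. It was also the highest, and the innermost the lowest, on each side alone. In the trained section the level ran from 193 to 8.09 CPM (3 UMIs, 1.67 to 23.7) on the left and from 277 to 66.5 CPM on the right. In the untrained section it ran from 150 to 22.0 CPM and from 187 to 13.9 CPM. The outer cortex (depth under 0.5) exceeded the inner cortex by 1.25 on the log2 scale (interval 1.04 to 1.46) in the trained and by 2.18 (1.93 to 2.44) in the untrained section. Vip was the only one of the 4 with a 1.5-fold outer excess in either section, which 4.6% of genes in the trained and 3.22% in the untrained section had. An inner excess of that size, which none of the 4 had (0 of 4 in each section), was met by 2.82% and 2.32% of genes, so that 7.42% and 5.54% passed either way.

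Sst peaked in the middle of the cortex. Its level from the surface inward was 369, 331, 504, 344 and 341 CPM in the trained section and 407, 404, 587, 578 and 414 CPM in the untrained section. Bin 3, where Etv1 was highest, was the Sst maximum in both (469 to 540 and 559 to 617), and in the untrained section bin 4 had an overlapping interval (548 to 610). Bin 3 was the maximum on the left (616 CPM) and right (425 CPM) of the trained section, but in the untrained section the left side had 510 CPM in bin 3 and 517 CPM in bin 5, and the right side 623 CPM in bin 3 and 666 CPM in bin 4. The log2 ratio of outer over inner cortex was -0.06 (-0.16 to 0.05) in the trained and -0.24 (-0.31 to -0.17) in the untrained section.

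Npy, with both sides pooled, was lowest in bin 2 of the 5 bins. It had 443, 238, 333, 349 and 415 CPM from the surface inward in the trained section and 412, 266, 336, 282 and 493 CPM in the untrained section. The surface bin (417 to 471 and 393 to 432) and the bin nearest the white matter (372 to 461 and 447 to 543) were its highest pair in both sections. In the untrained section bin 4 (261 to 304) overlapped bin 2 (248 to 285), and with 9 bins the lowest of that section was bin 7, at 237 CPM (212 to 265). This course was not shared by each side alone. In bin 3 of the trained section Npy had 563 CPM on the left and 171 CPM on the right, in bin 5 it had 653 and 225 CPM, and in bin 4 of the untrained section 157 and 333 CPM. Bin 2 was the lowest bin only on the right of the untrained section. The outer and inner cortex gave a log2 ratio of -0.11 (-0.22 to -0.01) in the trained and 0.01 (-0.08 to 0.10) in the untrained section.

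Cck had 2418, 2033, 1400, 1735 and 1442 CPM from the surface inward in the trained section and 2047, 1710, 1306, 1526 and 1416 CPM in the untrained section. It was highest at the surface and lowest in bin 3, the bin where Sst was highest, and higher again in bin 4. In both sections the interval of bin 3 (1342 to 1460 and 1263 to 1349) overlapped that of bin 5 (1361 to 1525 and 1336 to 1499). The surface bin was the highest on each side alone, while the lowest bin was bin 5 on the right of the trained section (1277 CPM) and on the left of the untrained section (1133 CPM). Outer over inner cortex gave 0.43 (0.38 to 0.48) and 0.35 (0.31 to 0.39) on the log2 scale. Its highest bin was only 1.73-fold and 1.57-fold its lowest, a shallower gradient than that of Vip. Over all genes the median of this ratio was 0.03 and 0.02. The oligodendrocyte gene Mbp changed with depth too, from 649 to 4414 CPM and from 1103 to 5210 CPM between bins 1 and 5, and its part in these profiles was not tested.

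**Figure D3:**
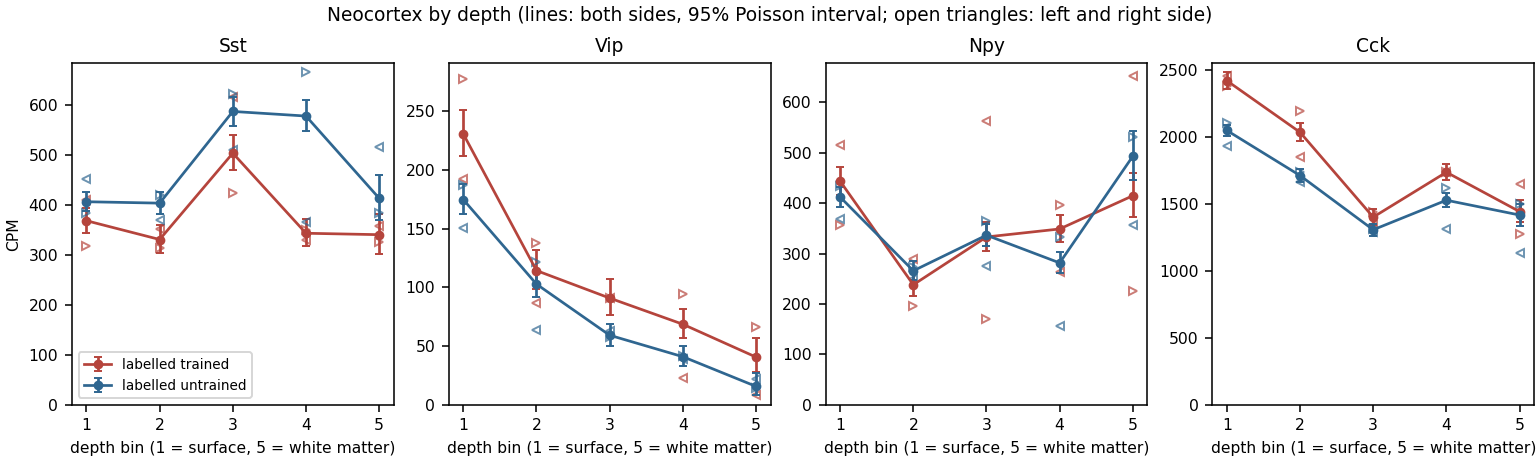
CPM of Sst, Vip, Npy and Cck in 5 bins of cortical depth (bin 1 at the surface, bin 5 at the white matter) for the trained (red) and untrained (blue) sections. Lines join both sides pooled, with exact 95% Poisson intervals as bars, and open triangles give the left and right side alone. Vip was lower in each of these 5 bins inward, though not in 9 bins, and Npy differed between sides, with 563 and 171 CPM in bin 3 of the trained section.

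Along the cortical sheet, Cck was lowest in the medial neocortex. Within 10 spot distances of the midline it had 1325 CPM in the trained and 1346 CPM in the untrained section, against 2039 and 1944 CPM at 10 to 20 distances and 2035 and 1704 CPM farther out. Sst followed the same medial minimum, with 291, 526 and 348 CPM from medial to lateral in the trained and 389, 539 and 482 CPM in the untrained section, so its maximum lay at the intermediate distance in both. Npy reached 517 CPM at the intermediate distance of the trained section, with 259 CPM medially and 325 CPM laterally, and had 307, 330 and 373 CPM in the untrained section. Vip had 111, 146 and 122 CPM in the trained section and 112, 94.1 and 97.1 CPM in the untrained section.

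The left and right neocortex of 1 section were also compared. Npy had 446 CPM (425 to 468) on the left and 284 CPM (268 to 300) on the right of the trained section, and 285 CPM (268 to 301) and 371 CPM (359 to 384) in the untrained section, so the higher side was not the same. Sst had 414 and 348 CPM in the trained and 432 and 494 CPM in the untrained section. Vip was higher on the right in both, with 105 and 142 CPM and with 86.8 and 106 CPM. Cck differed least between sides, with 1929 and 1869 CPM and with 1593 and 1723 CPM. Depth differed between sides as well, with medians of 7561.5 UMIs per spot on the left and 13806 on the right of the trained section and 11322 and 25103.5 in the untrained section, and its part was not tested.

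Sst UMIs were present in 79.1% of neocortical spots (548 of 693) in the trained and 94.04% (663 of 705) in the untrained section, Vip in 38.4% and 51.1%, Npy in 75.5% and 87.0% and Cck in 99.6% of trained spots and in each of the 705 untrained spots. The sections differed in depth there, at a median of 11189 and 15510 UMIs per spot. After each spot was thinned to 1000 UMIs the shares were 24.7% and 30.8% for Sst, 9.31% and 7.95% for Vip, 23.4% and 23.1% for Npy and 78.0% and 77.0% for Cck. White matter, with medians of 4011 and 7221.5 UMIs, gave thinned shares of 13.3% and 12.4% for Sst, 0.727% and 0.847% for Vip, 6.26% and 6.90% for Npy and 26.7% and 33.4% for Cck. As a ratio of these shares Vip in neocortex thus stood farthest from that background, while as a difference in percentage Cck did. The thinned Vip share was 12.46% and 10.98% in the outer cortex and 4.72% and 3.01% in the inner cortex. In the hippocampus the thinned Vip share was 1.30% and 1.39%, and in cluster 17 that of Sst was 63.1% and 57.9%.

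The UMIs of the 3 sparser peptides were concentrated in few cortical spots. The top 10% of neocortical spots by UMIs of each gene (70 trained, 71 untrained) held 50.8% and 44.2% of the Sst UMIs, 66.9% and 60.1% of Vip, and 53.7% and 48.0% of Npy. The same count of spots held 28.3% and 26.7% of Cck. The median spot had 2 and 5 Sst UMIs and 2 and 3 Npy UMIs, while the highest had 137 and 172 for Sst and 138 and 102 for Npy. Vip had a median of 0 and 1 and a highest count of 32 and 42. Cck was less concentrated, with a median of 18 and 25 UMIs and a highest count of 101 and 179.

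As a description of what is captured together, cortical spots with at least 2 UMIs of Sst, Vip or Npy were compared with spots that had none of that peptide. Since nearly every cortical spot held Cck, the top 10% of spots for Cck were compared with all the rest. The spots with 2 UMIs or more, or in the top 10% for Cck, are called rich spots, and ratios were taken within outer and within inner cortex, which leaves differences of depth inside each of them. Rich spots were deeper than the others (for Vip, medians of 13935 and 9122 UMIs in the trained and 20957 and 12760 in the untrained section), and the part of depth was not tested.

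Spots with Vip were richer in some interneuron genes. Htr3a, a serotonin receptor gene known from VIP and neurogliaform cells, was 4.96-fold (2.14 to 12.8) and 7.03-fold (3.73 to 13.8) the level of spots without Vip, and Crh, another peptide of VIP cells, 4.42-fold (2.62 to 7.73) and 2.22-fold (1.45 to 3.44). Adarb2, an RNA-editing family gene of these interneurons, had ratios of 1.83 and 2.61 and the calretinin gene Calb2 of 3.23 and 1.38. The somatostatin receptor gene Sstr2, which was higher in inner cortex, had ratios of 0.44 (0.26 to 0.70) and 0.50 (0.34 to 0.71), and the part of depth within outer or inner cortex was not tested. Of 25 interneuron genes with enough UMIs, 6 in the trained and 4 in the untrained section had a ratio of at least 1.5, against 4.81% and 3.91% of all genes. With 1 UMI or more in place of 2, the trained count was 3 of 24.

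Spots with Npy were richer in Sst, at 2.28-fold (2.02 to 2.58) in the trained and 1.98-fold (1.75 to 2.25) in the untrained section. Crhbp, a binding protein gene expressed in somatostatin cells, had ratios of 2.57 (1.56 to 4.53) and 2.40 (1.41 to 4.45) there. Pvalb, the parvalbumin gene of fast-spiking basket cells, was at 0.78 (0.72 to 0.85) and 0.89 (0.81 to 0.99). In all, 9 of 14 interneuron genes in the trained and 4 of 13 in the untrained section reached 1.5, against 2.96% and 3.77% of genes, and with 1 UMI or more the untrained count was 2 of 13. Spots with Sst were richer in Npy by 1.38-fold (1.23 to 1.54) and 1.32-fold (1.10 to 1.61). They had ratios of 1.13 (0.93 to 1.39) and 1.05 (0.74 to 1.55) for Vip, whose intervals include 1. For Sst, 4 of 12 and 2 of 7 interneuron genes reached 1.5, against 3.52% and 4.36%.

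Spots at the top for Cck were richer in Cnr1, which encodes CB1, at 2.69-fold (2.23 to 3.24) in the trained and 2.21-fold (1.91 to 2.56) in the untrained section. They were poorer in Pvalb, at 0.42 (0.36 to 0.48) and 0.68 (0.61 to 0.75), and richer in Vip, at 1.37 (1.16 to 1.61) and 1.92 (1.68 to 2.20). Gad1, which marks all inhibitory neurons, was at 0.71 (0.61 to 0.81) and 1.10 (0.98 to 1.23), the second interval including 1. Of 25 interneuron genes, 3 and 5 reached 1.5, against 8.42% and 6.42% of all genes.

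The receptors for the 4 peptides had levels and regional maxima of their own. Sstr2 was highest in the habenula, at 58.8 CPM (38.0 to 86.8) in the trained and 39.7 CPM (30.4 to 51.0) in the untrained section, with 18.12 and 16.98 CPM in neocortex. Within neocortex it was the inner receptor, with a log2 ratio of outer over inner cortex of -0.82 (-1.30 to -0.34) and -1.22 (-1.61 to -0.82). Sstr4 had no UMI in either section, which allows up to 0.102 and 0.0508 CPM at 3 UMIs. Npy1r peaked in the dentate gyrus at 71.3 CPM (58.4 to 86.3) and 57.0 CPM (49.7 to 65.0), and in neocortex was higher outside, at 0.55 (0.11 to 1.02) and 0.88 (0.46 to 1.33). Npy2r had 64.2 and 53.2 CPM in hippocampal cluster 14 but only 3.60 and 3.27 CPM in neocortex. Its maximum in the untrained section was 70.2 CPM (62.0 to 79.2) in cluster 15.

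The cholecystokinin receptors had different regional maxima. Cckbr was highest in neocortex at 36.6 CPM (32.6 to 40.9) and 44.9 CPM (41.3 to 48.6), with 5.11 and 6.17 CPM in hippocampus. In cluster 17 it had 5.48 and 28.2 CPM, and in striatum 5.24 and 20.5 CPM. Cckar was highest in cluster 17, at 16.4 CPM (9.20 to 27.1) and 30.4 CPM (16.6 to 51.0), and had 0 and 1 UMI in neocortex. Vipr1 had 20.9 and 12.3 CPM in neocortex. In the dentate gyrus it had 31.6 CPM (23.2 to 42.1), its maximum in the trained section, and 9.88 CPM in the untrained section. Vipr2 was highest in thalamic cluster 0, at 6.62 CPM (3.53 to 11.3) and 25.1 CPM (21.1 to 29.5), with 5.85 and 5.31 CPM in thalamic cluster 3. Of the receptors with at least 100 neocortical UMIs in a section, 1 of 5 in the trained and 1 of 6 in the untrained section were at least 1.5-fold higher in outer cortex (4.6% and 3.22% of all genes) and 1 of 5 and 1 of 6 in inner cortex (2.82% and 2.32%). The outer receptors were Adcyap1r1 (0.60, 0.26 to 0.95), the main receptor of the related peptide PACAP, in the trained and Npy1r in the untrained section, and the inner receptor was Sstr2 in both.

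**Figure D4:**
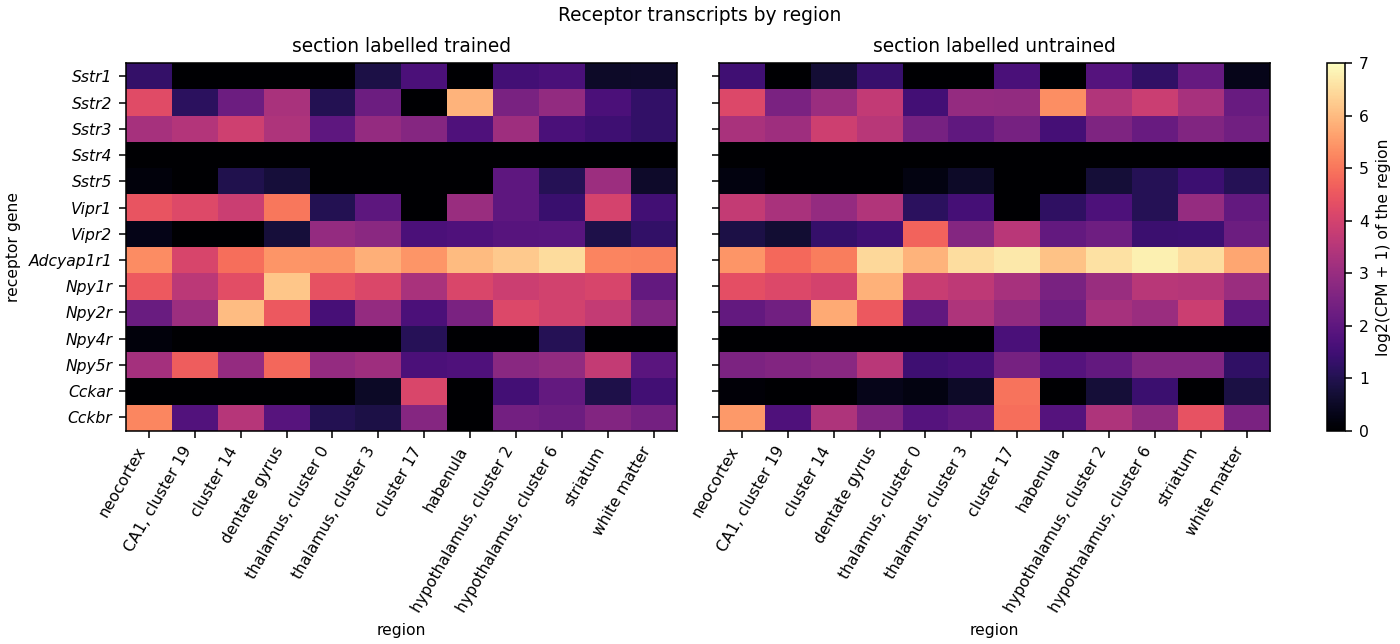
CPM of the receptor genes of the 4 peptides by region in the trained and untrained sections, as log2(CPM + 1) on the scale of the colour bar, with genes in lines and regions in columns. Sstr2 stood out in the habenula, Npy1r in the dentate gyrus, Cckbr in neocortex, Cckar in cluster 17 and, in the untrained section, Vipr2 in thalamic cluster 0.

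Other genes of interneurons and peptide release set the laminar profiles in context. Lamp5, a marker of neurogliaform cells that upper-layer pyramidal cells also carry, had an outer over inner log2 ratio of 1.20 (1.07 to 1.34) and 1.18 (1.07 to 1.30), close to that of Vip in the trained section. Calb2 had 1.85 and 0.66, and Reln, which marks cells of the outermost layer, 0.76 and 0.79. Of the interneuron genes with enough UMIs, 3 of 15 in the trained and 6 of 22 in the untrained section were at least 1.5-fold higher in outer cortex (4.6% and 3.22% of all genes), and 2 and 1 in inner cortex (2.82% and 2.32%). Gad1 was nearly even, at 0.26 (0.14 to 0.38) and 0.09 (-0.01 to 0.20).

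Among related peptides, Tac2, which encodes neurokinin B, was an outer gene at 0.85 (0.37 to 1.37) and 1.90 (1.49 to 2.37). Tac1, the substance P precursor gene, was an inner gene at -0.63 (-1.01 to -0.26) and -0.88 (-1.15 to -0.61). Of those measured, 3 of 6 in the trained and 3 of 8 in the untrained section passed 1.5-fold in the outer direction (4.6% and 3.22% of all genes) and 2 and 1 in the inner direction (2.82% and 2.32%). Of the 8 genes for prohormone processing and storage, 2 in the trained and 0 in the untrained section passed in the outer direction (4.6% and 3.22% of all genes) and 0 and 0 in the inner (2.82% and 2.32%). Cpe, which trims peptide precursors, had -0.16 and -0.08.

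Likeness of regional pattern was taken as Pearson's r of log2(CPM + 1) over the clusters of a section (21 trained, 22 untrained) among 10544 genes, and is a description, since clusters of 1 section share its library and depth. The genes most like Sst were the inhibitory neuron genes Gad1 (0.69 and 0.75), Slc32a1 (0.69 and 0.65) and Gad2 (0.74 and 0.64), then Ptprt. Those most like Vip were Lamp5 (0.85 and 0.88), Frmd6, Plekho1, R3hdm1 and Egr1. Npy was closest to Kcnj4 (0.88 and 0.84), Homer1, Mmp17, Arc and Kcnh3, and Cck to Lingo1 (0.91 and 0.92), Mical2, Khdrbs3, Dgkz and Brinp1. Between the peptides themselves, Vip and Npy had 0.69 and 0.70, Npy and Cck 0.38 and 0.69, Vip and Cck 0.61 and 0.59, and Sst and Npy 0.53 and 0.52. Sst and Cck had -0.28 and 0.14, and Sst and Vip 0.27 and 0.26.

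The labels set the trained against the untrained section, and their ratio is given as log2 of trained over untrained CPM with an interval for counting error. In neocortex Sst was lower in the trained section at -0.33 (-0.39 to -0.27), Vip higher at 0.32 (0.21 to 0.44), Cck higher at 0.17 (0.14 to 0.20), and Npy at 0.05 (-0.01 to 0.12). In the hippocampus Sst was at -0.25 (-0.37 to -0.15), Vip at -0.17 (-0.63 to 0.26), Npy at -0.12 (-0.22 to -0.01) and Cck at 0.16 (0.12 to 0.20). None of the 4 differed by 1.5-fold in either region (0 of 4 in each), while 10.9% of 11038 genes did in neocortex and 16% of 10240 in hippocampus (9.84% higher and 6.16% lower in the trained section). The median ratio over all those genes was 0.09 in neocortex and 0.07 in hippocampus.

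The sides of the brain gave a measure of the spread within a section. For Sst in neocortex the ratio was -0.06 on the left and -0.50 on the right, and for Npy it changed sign, with 0.65 on the left and -0.39 on the right. Vip kept its direction at 0.27 and 0.42, and Cck at 0.28 and 0.12. Summed CPM of markers of other cells moved between the sections too. In neocortex the 4 excitatory neuron genes had 4405 CPM in the trained and 4038 CPM in the untrained section, the 4 astrocyte genes 411 and 319 CPM, the 7 white matter genes 3058 and 3664 CPM and the 5 choroid plexus genes 496 and 2319 CPM. In the hippocampus they had 4106 and 4088, 614 and 388, 1723 and 2299, and 1062 and 4607 CPM. The 3 microglia genes had 66.7 and 89.9 CPM in neocortex and 74.1 and 87.5 CPM in hippocampus. The 6 genes of meninges and vessels had 73.8 and 104 CPM in neocortex and 49.7 and 103 CPM in hippocampus. Every one of these markers was detected in both sections, and their part in the peptide ratios was not tested.

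**Figure D5:**
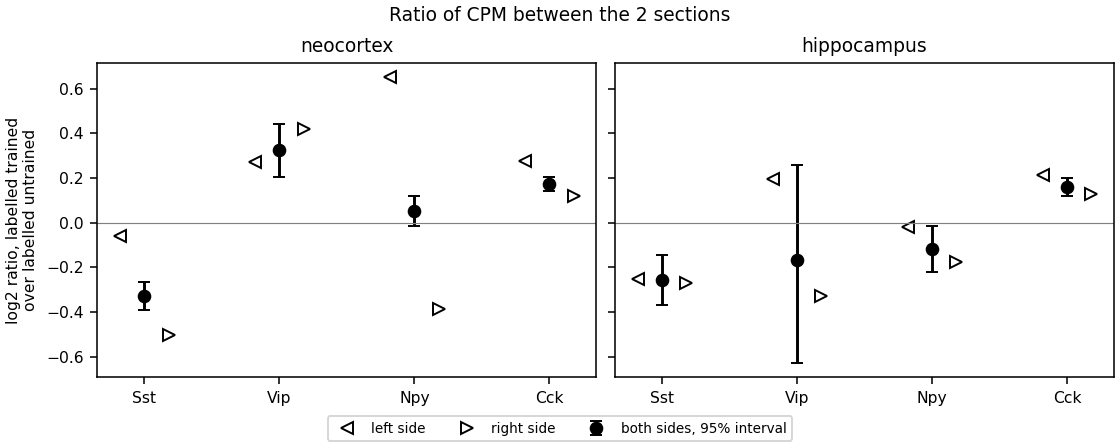
Log2 of trained over untrained CPM for Sst, Vip, Npy and Cck in neocortex and hippocampus, for both sides together (filled points, with 95% intervals for counting error as bars) and for the left and right side alone (open triangles). In neocortex the Npy ratio was 0.65 on the left and -0.39 on the right, and that of Sst ran from -0.06 to -0.50.

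Outside the neocortex as a whole, Sst was higher in the trained section, at 0.54 (0.49 to 0.59), Vip was lower at -0.66 (-0.94 to -0.39) and Cck lower at -0.23 (-0.26 to -0.20), each opposite to its neocortical direction, and Npy was at -0.0033 (-0.07 to 0.06). Within smaller regions the ratios ran both ways. The highest ratios of Sst were 1.94 (1.66 to 2.22) in choroid plexus, 1.88 (1.47 to 2.32) in meninges and vessels and 0.90 (0.59 to 1.20) in cluster 9. Sst was also higher in the trained section in cluster 17 (0.47, 0.32 to 0.62) and in CA1 cluster 5 (0.49, 0.29 to 0.69), and lower in hippocampal cluster 14 (-0.80, -1.01 to -0.61), striatum (-0.67, -0.86 to -0.48) and thalamic cluster 0 (-1.46, -1.84 to -1.12). Npy was lower in cluster 14 (-0.61, -0.83 to -0.40) and in CA1 cluster 19 (-0.64, -0.95 to -0.34), and higher in the dentate gyrus (0.25, 0.08 to 0.41). Its larger ratios were -1.57 (-2.13 to -1.08) in thalamic cluster 3, 1.41 (0.74 to 2.09) in meninges and vessels and 1.12 (0.66 to 1.63) in cluster 17. Cck went in opposite directions in the thalamic clusters, at -0.57 (-0.64 to -0.50) in cluster 0 and 0.58 (0.51 to 0.65) in cluster 3. In striatum Vip had 7 UMIs in the trained and 24 in the untrained section, of which 22 lay on the left side. The sections covered these regions to different extents, and anatomical level and training label cannot be told apart.

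Genes for peptide receptors and processing were set against the same background of 7.66% of neocortical genes at least 1.5-fold higher and 3.27% lower in the trained section. Of 7 receptors measured, 2 were higher, Vipr1 (0.77, 0.45 to 1.09) and Npy5r (0.79, 0.27 to 1.30), and 0 were lower. Of 8 processing genes, 2 were higher, the chromogranin gene Chga (0.65, 0.55 to 0.75) and the convertase gene Pcsk1 (0.62, 0.34 to 0.90), and 0 were lower, with a list median of 0.21. Of 24 interneuron genes, 2 were lower, Calb2 (-0.92, -1.26 to -0.61) and Nos1 (-0.67, -1.23 to -0.15). None of 8 related peptides passed in either direction (0 higher and 0 lower).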

How the data were processed

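Visium libraries of 2 sections were processed by the authors with Space Ranger 2.0.0 against mm10, and the deposited matrices hold counts, that is UMIs per gene and spot, for all tissue spots. The deposited spatial enrichment tables give a Moran's I score per gene, of which only the score and totals were used. Their p-value columns, the scale factors and the images other than spot positions were not used. The same 3448 spot barcodes occur in both sections, since Visium barcodes mark slide positions. Doublet calling does not apply to spots.

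The 4 genes were found by symbol. Counts were scaled to 10000 per spot, and spots with 500 UMIs or more (308 spots were below) were clustered with scanpy 1.11.5 and leidenalg 0.10.2 on 30 principal components, 15 neighbours and a resolution of 1.5. Clusters took a region name only from listed markers, and those that share a name keep their numbers. Neocortex and hippocampus were drawn as connected patches of their clusters, with mostly surrounded spots of other clusters taken in. Spots of clusters 13 and 20 (meninges and vessels) beside the neocortex were also joined to it, and those linked to its outer edge counted as surface. Counts of a region were pooled into CPM. Intervals at 95% were exact Poisson for levels, exact conditional binomial for ratios and Clopper-Pearson for shares, with scipy 1.17.1 and a pseudocount of 0.5 UMI for ratios. They cover counting error only. With 1 section per group no p-value was computed. Genes needed 100 UMIs or more in a comparison, and the peptide-rich comparison 20 expected UMIs. Thinned shares are expectations over all draws of 1000 UMIs. On simulated counts for the neocortical ratio of 11038 genes, 99.5% of 200 genes changed 2-fold were called at 1.5-fold and 0.332% of the others. The simulated counts had counting error only, with no spread between sections, sides or spots. These shares therefore do not give the rate of false calls in the real data.

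The 4 genes, the gene lists and the comparisons were chosen with earlier results of these data known. Text names the 4 genes, the listed genes, and the 5 genes most like each by regional pattern, apart from some items that are not reported here. Alternatives were each spot weighted equally, mitochondrial genes left out of totals, shallow or border spots left out, each side alone, other pseudocount, depth, clustering and thinning settings.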

Additional observations from a re-analysis of the deposited data

Results flagged for a closer look

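With depth measured by distance and both sides pooled, Npy was the only peptide whose outer over inner cortex ratio had opposite signs in the sections, at -0.11 on the log2 scale in the trained and 0.0114 in the untrained section. The difference between the sections was not tested, and their counting intervals overlap (-0.22 to -0.01 and -0.08 to 0.10). The opposite signs depended on how depth was divided: a layer marker score gave Npy -0.0360 and -0.0442, and leaving out surface spots gave -0.41 and -0.16. Under the same alternatives it was Sst that had opposite signs, at 0.31 and -0.23 and at 0.0730 and -0.20. With depth by distance on the left side alone, both Npy (-0.12 and 0.31) and Sst (0.0019 and -0.13) had opposite signs. On the right side alone no peptide did, with Npy at -0.26 and -0.06.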

How the results depend on the processing

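No paired analysis was possible because each group has 1 section, so the groups share fewer than 2 replicate numbers. No ratio whose interval lay apart from 0 changed sign under the alternatives run, and neither a pseudocount of 5 UMIs nor leaving out spots under 1000 UMIs moved any of the 16 section and outer over inner ratios. Clustering at resolutions 1.0 and 2.0 moved none of the 16 levels pooled over neocortex or hippocampus, and the smaller regions and the ratios were not recomputed under it. In neocortex the left side gave -0.0600 for Sst, 0.65 for Npy and 0.28 for Cck and the right side -0.50, -0.39 and 0.12, and the left hippocampus gave 0.21 for Cck. Without mitochondrial genes in the totals, the neocortical ratios were -0.42 for Sst, -0.0371 for Npy and 0.0821 for Cck, and the hippocampal ratio of Cck was 0.0806. With each spot weighted equally, the hippocampal ratios were -0.11 for Sst, -0.0035 for Npy and 0.0313 for Cck, and that of Npy in neocortex was 0.21. Leaving out border spots gave -0.51 for hippocampal Sst, and weighting 5 depth bins equally gave 0.47 for neocortical Vip. For outer over inner cortex, the left side gave -0.13 (untrained Sst), 1.88 and 1.70 (trained and untrained Vip), 0.31 (untrained Npy) and 0.45 (untrained Cck), and the right side -0.16 and -0.26 (trained Sst and Npy). Dividing the cortex by a layer marker score gave 0.31 for trained Sst, 1.47 and 1.59 for Vip and 0.58 and 0.40 for Cck. Without the spots at the surface, an alternative chosen after seeing the data, trained values were 0.0730 (Sst), 0.97 (Vip), -0.41 (Npy) and 0.33 (Cck) and untrained values 1.85 (Vip), -0.16 (Npy) and 0.22 (Cck). Thinning to 1000 UMIs gave the shares of spots printed above, 24.7% and 30.8% for Sst, 9.31% and 7.95% for Vip, 23.4% and 23.1% for Npy and 78.0% and 77.0% for Cck. With 1 UMI in place of 2, the interneuron genes at 1.5-fold or more were 3 in trained Vip spots and 2 in untrained Npy spots. The cause of these moves was not tested. Depth limits Vip most, with 20 UMIs or fewer in each region of the trained section outside neocortex and hippocampus.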
